A study of Mus musculus with 20 samples.

Results

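The comparison described here is the interaction of genotype and apigenin in the embryonic mouse forebrain: the apigenin effect in Ts1Cje embryos minus the apigenin effect in wild-type embryos. It was computed for every gene that could be named, which were 20239 of the 21225 probe sets on the array. RNA from 20 forebrains at embryonic day 15 was measured on Affymetrix Mouse Gene ST 1.0 arrays, with 1 embryo per array and 5 embryos in each of 4 groups. The groups were wild-type and Ts1Cje embryos on plain powdered chow, and wild-type and Ts1Cje embryos on the same chow with apigenin. Dams ate their chow from mating on, and the apigenin chow held 2 g per kg, given as 333 to 400 mg/kg/day. All embryos came from Ts1Cje males crossed to C57Bl/6J females, so littermates of both genotypes shared a dam's diet. Each group held 3 males and 2 females, per the design text. The labels do not say which embryos shared a dam, so p-values here reflect the spread among embryos of which some may be littermates.

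Ts1Cje mice are trisomic for a distal segment of chromosome 16, which is translocated to the end of chromosome 12, and are a model of Down syndrome that leaves part of the homologous human region at its normal dosage. Genes with an extra copy are usually expressed in proportion to it. At this stage the forebrain holds dividing progenitors along the ventricles and the neurons they have produced. Apigenin is a plant flavone that inhibits several kinases and has anti-inflammatory and antioxidant actions in cultured cells. An interaction asks whether the same chow moved a gene by a different amount, or in a different direction, in the 2 genotypes. A positive interaction means that the log2 difference between apigenin and plain chow was more positive in Ts1Cje embryos.

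The values are log2 expression, so a difference of 1 is a 2-fold change. Arrays correlated with each other at r = 0.991 to 0.997 over genes, array medians lay between 7.84 and 7.88, and 0 pairs of arrays were identical. The forebrain markers Emx1, Neurod6, Dlx2, Gad2, Sox2 and Tubb3 lay between 8.29 and 11.5 in all arrays. Among markers of other cells, the mean level per array of 21 microglial genes lay between 7.3 and 7.47 and that of 20 choroid plexus genes between 7.92 and 8, over all 20 arrays. The mean of 22 erythroid and globin genes was 7.62 to 7.75 on plain chow and 7.78 to 7.95 on apigenin chow. Hbb-y, 1 of the 22, was 2.78 higher on apigenin averaged over the genotypes. The median apigenin effect of the list was 0.04 in each genotype, so this mean does not describe the list in general.

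No gene passed the test for a different apigenin response in the 2 genotypes. With limma and Benjamini-Hochberg adjustment over all genes, 0 of 20239 genes (0%) had an adjusted p under 0.05. At an unadjusted p under 0.05 there were 533 genes (2.63%), of which 316 (1.56%) had a positive and 217 (1.07%) a negative interaction. Fewer small p-values occurred than an even spread of p would give: 1012 genes fall in each bin of width 0.05 under an even spread. The reason for this shortage was not tested, so it is not read as evidence of equal responses. The p-value was above 0.5 for 57.9% of genes, under 0.01 for 94 genes (0.464%) and under 0.001 for 10. The smallest was 7.1e-06, for the olfactory receptor gene Olfr61, with a limma adjusted p of 0.143, and the next smallest adjusted p was 1. An unmoderated linear model for each gene called 1 gene, again Olfr61, and 800 genes had an unadjusted p under 0.05 when replicate 2 of the wild-type plain chow group was left out.

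The width of the intervals says how large an interaction the 20 arrays would have left unseen. The median interaction was 0.0019 on the log2 scale and its median size was 0.0489. The median standard error (SE) was 0.087 for the interaction, against 0.0615 for the apigenin effect in a single genotype and 0.0435 for the apigenin effect averaged over both. To pass as the single smallest p, a gene of median precision needed an interaction of 0.567, or 1.48-fold. The 95% interval of the interaction lay within 1.5-fold in either direction for 19612 genes (96.9%) and within 2-fold for 20150 (99.6%). An interval within a bound limits the difference between the genotypes for that gene and does not show that there was none.

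**Figure D1:**
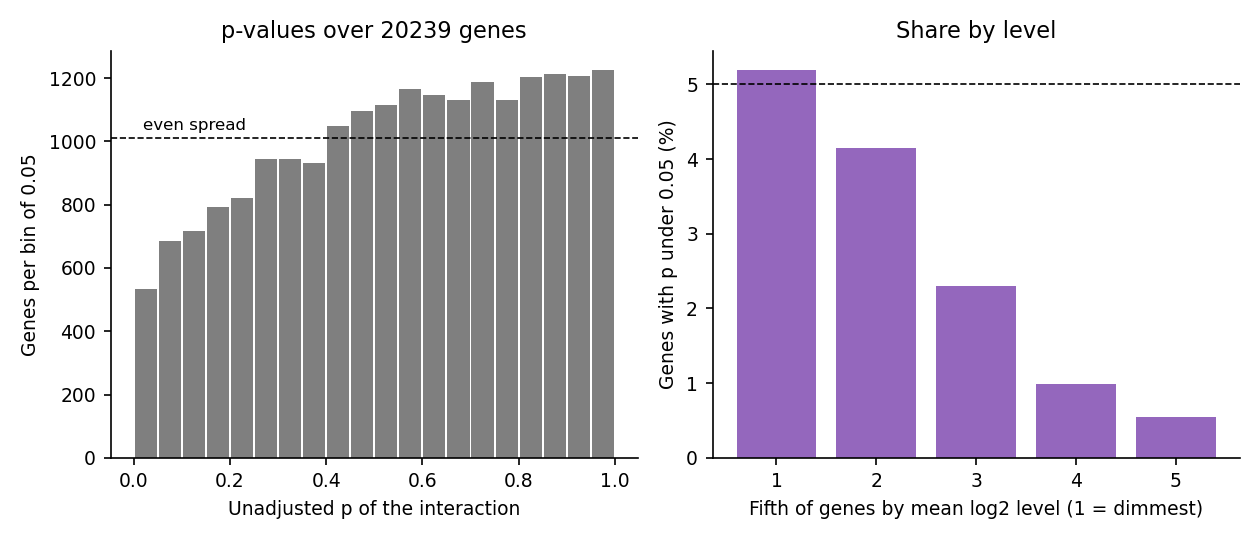
Left, the number of genes in each bin of 0.05 of the unadjusted interaction p, with a dashed line at the 1012 genes an even spread would give; the bin nearest 0 holds 533. Right, the percentage of genes with p under 0.05 in 5 classes of mean log2 level, which runs from 5.19% in the dimmest to 0.543% in the brightest, with a dashed line at 5%.

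Many genes differed between the chows in both genotypes, in nearly the same way. Plain and apigenin chow embryos came from separate runs of embryo numbers, so chow and run cannot be told apart. In wild-type embryos 1308 genes (6.46%) were higher and 1184 (5.85%) lower on apigenin chow at a limma adjusted p under 0.05. In Ts1Cje embryos 1638 (8.09%) were higher and 1653 (8.17%) lower. These are 2492 and 3291 calls, and 2019 genes were called in both genotypes, 81% of the wild-type calls and 61.3% of the Ts1Cje calls. Of the 2019, 2018 moved the same way, and 1 gene, Trarg1, moved in opposite directions. The arms compared here share no array, but they share the same estimate of spread for each gene. Embryos of both genotypes may also share a dam. Over all genes the apigenin effects of the 2 genotypes had r = 0.726, a description across genes, which are not independent replicates.

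Most genes called in one genotype had an effect of the same sign in the other. Among the 2492 wild-type calls, 2454 (98.5%) had the same sign in Ts1Cje embryos, with a median effect, taken in the direction of the call, of 0.217 in wild-type and 0.221 in Ts1Cje embryos. Among the 3291 Ts1Cje calls, 3260 (99.1%) had the same sign in wild-type embryos, with medians of 0.214 in Ts1Cje and 0.173 in wild-type embryos. The value in the genotype where a gene was called is raised by that choice. There were 1745 genes called in 1 genotype only, 473 in wild-type and 1272 in Ts1Cje embryos, and 0 of them had a called interaction with limma. At an unadjusted p under 0.05 the interaction counted 66 of the 473 (14%) and 100 of the 1272 (7.86%), but these genes were picked on arrays that also enter the interaction. The larger number of calls in Ts1Cje embryos thus came without a called difference in any of those genes.

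**Figure D2:**
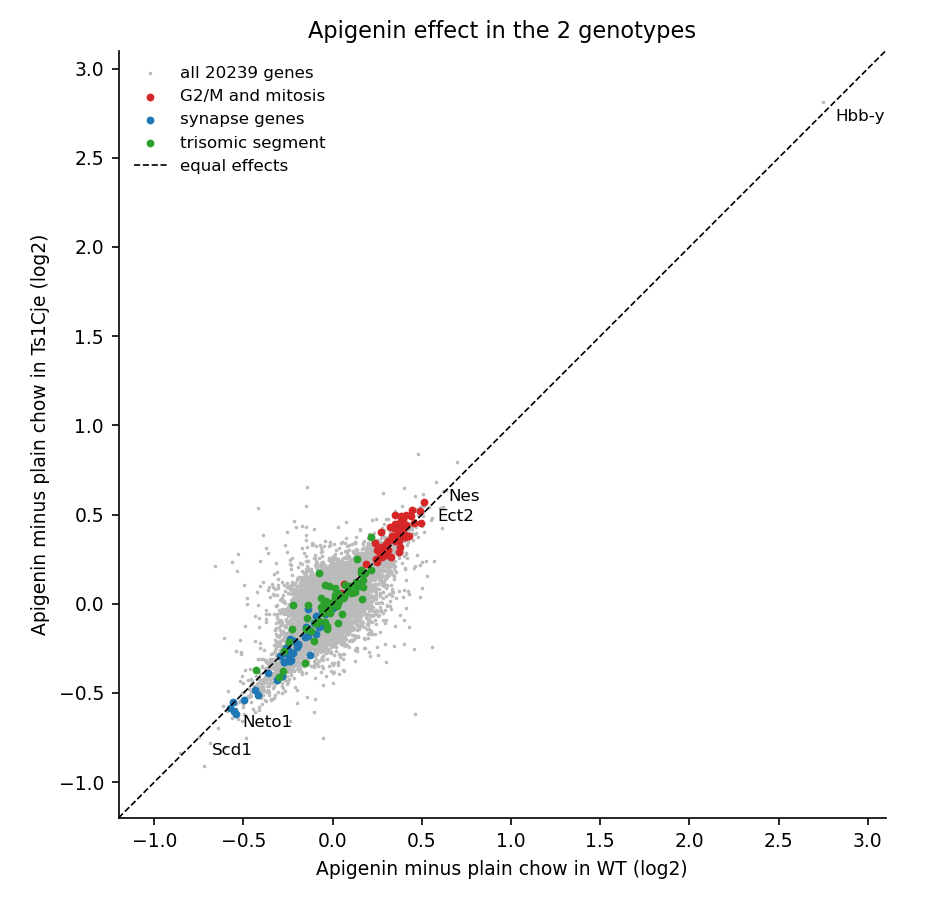
Each point is a gene, placed by the log2 difference of apigenin and plain chow in wild-type (x axis) and Ts1Cje embryos (y axis), with G2/M, synapse and trisomic segment genes coloured. Points scatter around the dashed line of equal effects, with r = 0.726 over all genes and opposite signs for 5468 of 20239. Hbb-y sits at 2.75 and 2.81.

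Genes picked on the apigenin effect averaged over the genotypes are not picked on the size of the interaction. These estimates are orthogonal in this balanced design, but both tests use the same estimate of spread for each gene. That average called 5238 genes (25.9%), and 2.06% of them had an interaction p under 0.05, against 2.63% of all genes. This percentage varied with level, from 5.19% in the dimmest to 0.543% in the brightest class, and the sets were not matched for level. The apigenin effect was larger in Ts1Cje embryos for 3446 of the 5238 (65.8%), with median effects of 0.173 in Ts1Cje and 0.154 in wild-type embryos. Over all genes that share was 54.6%, and it was 59.9% of the genes higher and 72.6% of those lower on apigenin. The share over the 5238 ranged from 59.4% without replicate 2 of the wild-type plain chow group to 72.3% without replicate 3 of the Ts1Cje plain chow group. Genes share arrays and move together, so this share has no test here. The genotype effect averaged over the chows called 126 genes (0.623%), and 9 of them (7.14%) had an interaction p under 0.05. Their median genotype effect, taken in the direction of the average, was 0.242 on plain and 0.235 on apigenin chow.

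The chow groups were also compared embryo by embryo. Every apigenin embryo lay above, or every one below, all plain chow embryos for 2019 of 20239 genes in wild-type and 2931 in Ts1Cje embryos. For 1385 genes this held in both genotypes in the same direction, and for 0 genes in opposite directions. At an unadjusted p under 0.05 in each genotype, 12 of the 20239 genes had apigenin effects of opposite sign. The number expected by chance was not computed, so neither the 0 nor the 12 is read as a result.

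The genes with large apigenin effects described here moved by similar amounts in both genotypes. Hbb-y, an embryonic beta-like globin of primitive red cells, gave the largest difference of those described. Plain chow gave Hbb-y values of 6.78, 7.13, 6.73, 7 and 7.22 in wild-type and 6.53, 6.92, 7.67, 7.23 and 6.32 in Ts1Cje embryos. Apigenin chow gave 9.46, 9.87, 9.66, 9.26 and 10.32 in wild-type and 9.9, 9.51, 10.3, 9.16 and 9.85 in Ts1Cje embryos. The chow groups did not overlap in either genotype, and the genotypes overlapped on each chow. Hbb-y rose by 2.75 (SE 0.24) in wild-type and 2.81 (SE 0.24) in Ts1Cje embryos, with limma adjusted p of 2.6e-06 and 1.2e-06. Its interaction was 0.06, with a 95% interval of -0.63 to 0.76, the widest of the genes described in this paragraph. Of the 22 measured erythroid and globin genes, 2 were higher in wild-type and 3 in Ts1Cje embryos, where 6.46% and 8.09% of all genes were. An interaction p under 0.05 was found for 0 of the 22, against 2.63% of all genes. Most of that list thus did not pass in either genotype. The part of red cell RNA in other apigenin effects was not tested, and in bulk tissue fewer cells of a type and less RNA per cell cannot be told apart. Scd1, the stearoyl-CoA desaturase that makes monounsaturated fatty acids, was lower on apigenin in both. Among wild-type embryos the values were 9.77, 9.64, 9.58, 9.68 and 9.68 without apigenin and 8.93, 8.71, 9.02, 9.01 and 8.95 with it. Among Ts1Cje embryos they were 9.85, 9.46, 9.43, 9.83 and 9.78 without apigenin and 8.93, 9.01, 8.79, 8.92 and 8.97 with it. All 10 apigenin embryos lay below all 10 plain chow embryos, and Scd1 fell by 0.75 in each genotype (SE 0.08 in both), with an interaction of 0.00 and an interval of -0.23 to 0.23. Neto1, an auxiliary subunit of kainate and NMDA receptors, fell by 0.58 in each genotype, with an interaction of -0.01 and an interval of -0.18 to 0.16. Ect2, the exchange factor that drives cytokinesis, rose by 0.51 in wild-type and 0.57 in Ts1Cje embryos, with an interaction of 0.06 and an interval of -0.13 to 0.24.

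Most proliferation genes were higher on apigenin in both genotypes. Of 54 measured G2/M and mitosis genes, 49 were higher on apigenin in wild-type and 50 in Ts1Cje embryos, with median apigenin effects of 0.35 and 0.38 and a median interaction of 0.03. The median interaction over all genes was 0.0019, and 6.46% of all genes were higher in wild-type and 8.09% in Ts1Cje embryos. The lists were drawn up with earlier results of these data known, so they are described and not tested. Among 51 G1/S and DNA replication genes, including the helicase subunit Mcm2, 34 were higher in wild-type and 39 in Ts1Cje embryos and 0 were lower in either, with medians of 0.22 in both. Mcm2 rose by 0.42 and 0.40, with an interaction of -0.02 and an interval of -0.15 to 0.12. Of 23 intermediate progenitor genes 14 were higher and 0 lower in wild-type and 19 higher and 1 lower in Ts1Cje embryos. Their medians were 0.24 in wild-type and 0.29 in Ts1Cje embryos, with a median interaction of 0.04. The intermediate filament Nes, a radial glial marker, rose by 0.58 in wild-type and 0.68 in Ts1Cje embryos, with an interaction of 0.10 and an interval of -0.17 to 0.37. Of the wider list of 38 radial glial genes, 11 were higher and 3 lower in wild-type and 15 higher and 3 lower in Ts1Cje embryos. The share of all genes that were lower was 5.85% in wild-type and 8.17% in Ts1Cje embryos.

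Most synapse genes were lower on apigenin in both genotypes. Of 48 measured synapse genes, 30 were lower in wild-type and 33 in Ts1Cje embryos and 0 were higher in either, with medians of -0.23 and -0.25 and a median interaction of -0.03. Shank2, a postsynaptic scaffold, had the smallest interaction p of the list. Shank2 in wild-type embryos read 8.76, 8.84, 8.83, 8.66 and 8.74 with plain chow and 8.61, 8.71, 8.65, 8.63 and 8.6 with apigenin. The Ts1Cje readings were 8.9, 8.83, 8.87, 8.84 and 8.73 with plain chow and 8.56, 8.62, 8.48, 8.54 and 8.53 with apigenin. The chow groups did not overlap in Ts1Cje embryos, and Shank2 fell by 0.29 there, while it measured -0.12 in wild-type embryos, where it did not pass. Its interaction was -0.16 (95% interval -0.29 to -0.04, unadjusted p = 0.0121, limma adjusted p = 1). Among 20 striatal neuron genes, 7 were lower and 1 higher in each genotype, with a median of -0.09 in both. Of 17 cholesterol synthesis genes, 3 were lower in each genotype and 1 was higher in wild-type embryos, with medians of -0.11 and -0.09, where 5.85% and 8.17% of all genes were lower and 6.46% higher in wild-type embryos. Interaction calls numbered 0 in each of the 34 lists, whose median interactions lay between -0.07 and 0.04, and no list held more than 4 genes with an unadjusted p under 0.05.

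**Figure D3:**
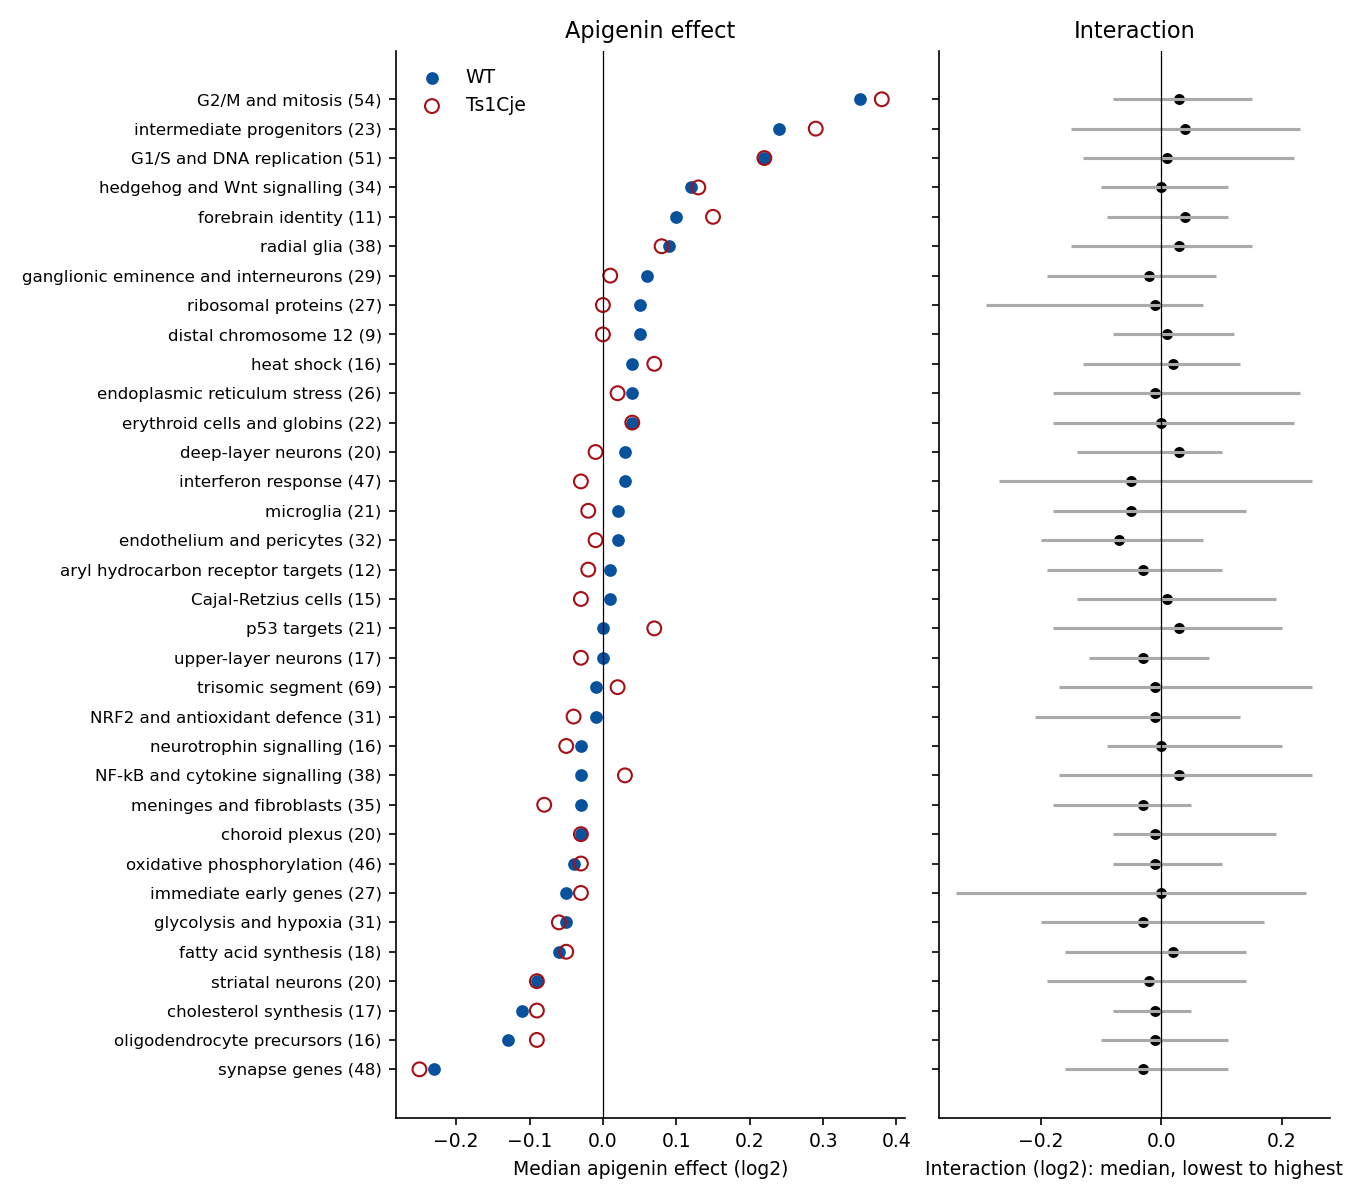
Left, the median log2 apigenin effect of each gene list in wild-type (filled) and Ts1Cje embryos (open circles), with the number of measured genes in brackets; G2/M genes are at 0.35 and 0.38 and synapse genes at -0.23 and -0.25. Right, the median interaction (point) and the lowest to highest gene (line), with all medians between -0.07 and 0.04.

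The mean level of the trisomic segment differed little between the chows, while single genes of it went both ways. The mean level of its 69 measured genes was 8.46 on plain and 8.453 on apigenin chow in wild-type embryos, and 8.737 and 8.732 in Ts1Cje embryos. On apigenin 8 of the 69 were higher and 8 lower in wild-type embryos, where 6.46% and 5.85% of all genes were. In Ts1Cje embryos 6 were higher and 8 lower, where 8.09% and 8.17% of all genes were. The median interaction was -0.01, with 2 genes positive and 2 negative at an unadjusted p under 0.05, where 2.63% of all genes passed. Dyrk1a, a kinase that acts on the division of neural progenitors, was higher in Ts1Cje embryos by 0.32 on plain and 0.33 on apigenin chow, with an interaction of 0.01 and an interval of -0.08 to 0.10. The splicing cofactor Son, the synaptic phosphatase Synj1 and the interferon receptor subunit Ifnar1 had interactions of 0.01, 0.00 and 0.06. The ciliary dynein Dnah11, which lies on distal chromosome 12 and was 3.54 higher in Ts1Cje embryos on plain and 3.61 higher on apigenin chow, had an interaction of 0.07 and an interval of -0.11 to 0.25.

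Among the genes of the segment, Kcnj6, which encodes the potassium channel GIRK2, had an interaction p of 0.0154, the smallest. Plain chow gave Kcnj6 values of 7, 7.06, 7, 6.96 and 6.95 in wild-type and 7.4, 7.44, 7.36, 7.53 and 7.36 in Ts1Cje embryos. Apigenin chow gave 6.85, 6.81, 6.98, 6.8 and 6.73 in wild-type and 7.09, 7.17, 7.06, 7.01 and 7.1 in Ts1Cje embryos. The chow groups did not overlap in Ts1Cje embryos and overlapped in wild-type embryos. Kcnj6 fell by 0.33 in Ts1Cje and 0.16 in wild-type embryos, and its genotype difference was 0.42 on plain and 0.25 on apigenin chow. The interaction was -0.17 (SE 0.07, 95% interval -0.31 to -0.04), with a limma adjusted p of 1. Sod1, the copper-zinc superoxide dismutase, had an interaction of -0.14 (95% interval -0.26 to -0.02, unadjusted p = 0.0294). Its genotype difference was 0.35 on plain and 0.22 on apigenin chow, and its apigenin effect passed in neither genotype. Fam3b, a secreted cytokine-like protein, ran the other way with an interaction of 0.25 (95% interval 0.03 to 0.46, unadjusted p = 0.0259). It was dim, with a mean level of 5.63. In the wild-type plain chow group, replicate 1 of Fam3b read 6.02, above the others at 5.61 to 5.67. The second positive gene was the serine protease Tmprss2, named after its value was seen, at 0.21 (unadjusted p = 0.0383).

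Endothelial genes had the lowest list median of the interaction, and interferon and microglial genes followed, each at -0.05. Of 32 measured endothelium and pericyte genes, 28 had a negative interaction, the median was -0.07, and 2 had an unadjusted p under 0.05, where 2.63% of all genes did. Over all genes the median interaction was 0.0019, so negative interactions were not the majority. Other lists also leaned negative, with 35 of 48 synapse, 14 of 20 striatal and 13 of 17 upper-layer genes negative. Some leaned positive, with 15 of 54 G2/M and 12 of 38 NF-kB and cytokine genes negative. Lists were not matched for level. By class of mean level, the median interaction of all genes ran from 0.0225 in the next to dimmest to -0.0097 in the next to brightest. In Ts1Cje embryos 7 of the 32 endothelium and pericyte genes were lower on apigenin and 0 higher, where 8.17% of all genes were lower. In wild-type embryos 2 were higher and 2 lower, where 6.46% and 5.85% of all genes were. The mean level per array of the list was 8.46 to 8.52 in Ts1Cje embryos on plain chow and 8.43 to 8.45 on apigenin chow, and 8.4 to 8.48 and 8.4 to 8.51 in wild-type embryos. Thus every Ts1Cje apigenin embryo lay below every Ts1Cje plain chow embryo, while the wild-type groups overlapped. Markers of meninges and fibroblasts were also measured: of 35 genes, 26 had a negative interaction and 0 had an unadjusted p under 0.05, with a median of -0.03. Their mean level per array was 8.8 to 8.86 on plain and 8.65 to 8.8 on apigenin chow in Ts1Cje embryos. There 6 were lower and 2 higher, against 8.17% and 8.09% of all genes. In wild-type embryos the mean level was 8.71 to 8.85 and 8.63 to 8.8. Here 3 were lower and 1 higher, against 5.85% and 6.46% of all genes. The part of meningeal RNA in the endothelial values was not tested. Over 26 settings the endothelial median lay between -0.08 and -0.044. Of the 47 interferon genes 34 had a negative interaction, and their median lay between -0.072 and -0.034 over the same settings. These settings refit the same arrays, and both lists were singled out by their medians there. The ranges therefore give no separate support. The 1 interferon gene with an unadjusted p under 0.05 went the other way: Ifitm1, an interferon-induced membrane protein, had an interaction of 0.20 (95% interval 0.02 to 0.38, unadjusted p = 0.0291).

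Slco1c1, the thyroxine transporter of the blood-brain barrier, was one of the endothelial genes with an unadjusted p under 0.05. Among wild-type embryos the values were 9.02, 9.14, 8.99, 9.1 and 9.06 without apigenin and 9.01, 8.86, 8.79, 8.92 and 8.81 with it. Among Ts1Cje embryos they were 9.31, 9.21, 9.29, 9.16 and 9.25 without apigenin and 8.74, 8.91, 8.83, 8.85 and 9.07 with it. The chow groups did not overlap in Ts1Cje embryos. Slco1c1 fell by 0.37 (SE 0.06) in Ts1Cje and 0.18 (SE 0.06) in wild-type embryos, and its interaction was -0.19 (95% interval -0.35 to -0.02, unadjusted p = 0.0285). The other, Flt1, the VEGF receptor 1, fell by 0.27 in Ts1Cje embryos and measured -0.10 in wild-type embryos, where it did not pass, with an interaction of -0.17 (95% interval -0.32 to -0.02, unadjusted p = 0.0279). Both had a limma adjusted p of 1.

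**Figure D4:**
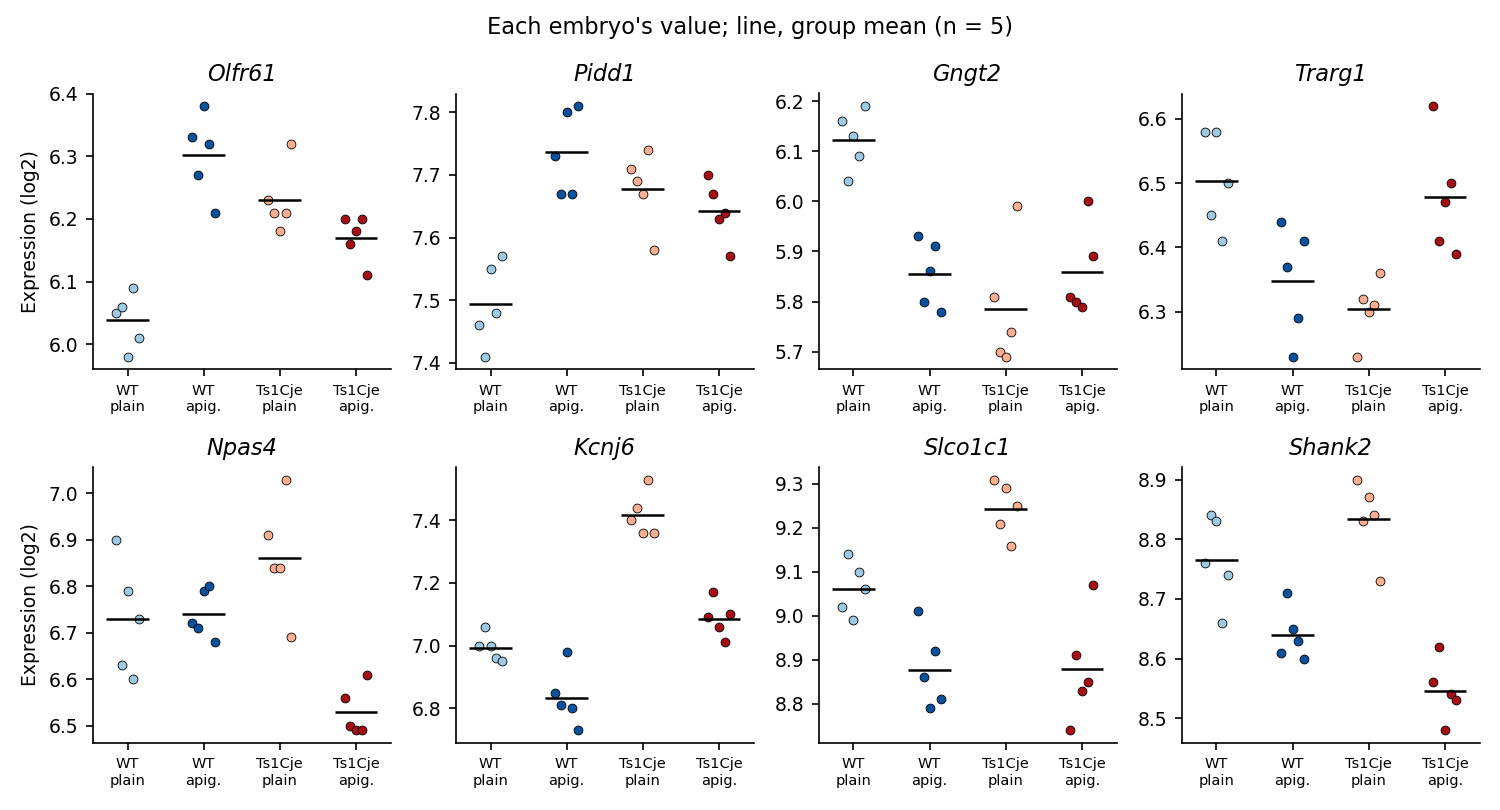
Log2 expression of 8 genes in each embryo, by genotype and chow, with the group mean of 5 embryos as a line; the axes do not start at 0 and differ between genes. Olfr61 and Pidd1 rise in the wild-type groups, Npas4 falls in the Ts1Cje groups, and Kcnj6 falls in both.

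The genes with the smallest interaction p were mostly dim, and the first 7 by p are given here with their values in every embryo. Olfr61, an olfactory receptor gene, ranked first. Olfr61 in wild-type embryos read 6.05, 6.06, 5.98, 6.09 and 6.01 with plain chow and 6.33, 6.27, 6.38, 6.32 and 6.21 with apigenin. The Ts1Cje readings were 6.23, 6.21, 6.18, 6.21 and 6.32 with plain chow and 6.2, 6.16, 6.18, 6.2 and 6.11 with apigenin. The wild-type chow groups did not overlap, while the Ts1Cje groups did. Olfr61 rose by 0.26 (SE 0.04) in wild-type embryos and measured -0.06 (SE 0.04) in Ts1Cje embryos, giving an interaction of -0.32 (95% interval -0.43 to -0.21). Trarg1, which helps bring the glucose transporter GLUT4 to the surface of fat cells, ranked second. Plain chow gave Trarg1 values of 6.58, 6.45, 6.58, 6.41 and 6.5 in wild-type and 6.23, 6.32, 6.3, 6.31 and 6.36 in Ts1Cje embryos. Apigenin chow gave 6.44, 6.37, 6.23, 6.29 and 6.41 in wild-type and 6.62, 6.41, 6.47, 6.5 and 6.39 in Ts1Cje embryos. Trarg1 fell by 0.16 in wild-type and rose by 0.18 in Ts1Cje embryos (limma adjusted p of 0.0473 and 0.0198), and its chow groups overlapped in wild-type embryos only. The interaction was 0.33 (95% interval 0.18 to 0.48, unadjusted p = 1.5e-04).

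Pidd1, a scaffold that activates caspase-2 after DNA damage and after failed cell division, came next. Among wild-type embryos the values were 7.46, 7.41, 7.55, 7.48 and 7.57 without apigenin and 7.73, 7.67, 7.8, 7.67 and 7.81 with it. Among Ts1Cje embryos they were 7.71, 7.69, 7.67, 7.74 and 7.58 without apigenin and 7.7, 7.67, 7.63, 7.64 and 7.57 with it. Pidd1 rose by 0.24 in wild-type embryos, where the chow groups did not overlap, and measured -0.04 in Ts1Cje embryos, where they did. Its interaction was -0.28 (95% interval -0.41 to -0.15, unadjusted p = 1.7e-04). Gngt2, a G protein gamma subunit of cone photoreceptors, ranked next. Gngt2 in wild-type embryos read 6.16, 6.04, 6.13, 6.09 and 6.19 with plain chow and 5.93, 5.8, 5.86, 5.91 and 5.78 with apigenin. The Ts1Cje readings were 5.81, 5.7, 5.69, 5.74 and 5.99 with plain chow and 5.81, 5.8, 5.79, 6 and 5.89 with apigenin. It fell by 0.27 in wild-type embryos, where the chow groups did not overlap, and measured 0.07 in Ts1Cje embryos, where they did, with an interaction of 0.34 (95% interval 0.18 to 0.50, unadjusted p = 2.9e-04).

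Cfap70, a protein of the ciliary axoneme, followed. Its wild-type values were 6.4, 6.53, 6.41, 6.47 and 6.41 with plain chow and 6.17, 6.3, 6.45, 6.21 and 6.25 with apigenin. Its Ts1Cje values were 6.28, 6.26, 6.35, 6.3 and 6.15 with plain chow and 6.34, 6.48, 6.48, 6.42 and 6.36 with apigenin. The chow groups overlapped in both genotypes. Cfap70 fell by 0.17 in wild-type embryos and measured 0.15 in Ts1Cje embryos, where it did not pass, with an interaction of 0.32 (95% interval 0.17 to 0.47, unadjusted p = 2.9e-04). Try10, a trypsin gene, had wild-type values of 4.52, 4.46, 4.76, 3.98 and 4.41 with plain chow and 3.96, 3.4, 4.06, 3.96 and 3.93 with apigenin. In Ts1Cje embryos Try10 was 3.82, 3.93, 3.87, 4.31 and 3.88 with plain chow and 4.23, 4.38, 4.13, 4.17 and 4.07 with apigenin. These groups overlapped in both genotypes too. Try10 fell by 0.56 in wild-type embryos and measured 0.24 in Ts1Cje embryos, where it did not pass, with an interaction of 0.80 (95% interval 0.41 to 1.18, unadjusted p = 3.4e-04).

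Npas4, a transcription factor induced by neuronal activity, was the member of the 27 immediate early genes with the smallest p. Npas4 in wild-type embryos read 6.9, 6.63, 6.79, 6.6 and 6.73 with plain chow and 6.72, 6.71, 6.79, 6.8 and 6.68 with apigenin. The Ts1Cje readings were 6.91, 6.84, 6.84, 7.03 and 6.69 with plain chow and 6.56, 6.5, 6.49, 6.49 and 6.61 with apigenin. Npas4 fell by 0.33 (SE 0.06) in Ts1Cje embryos, with no overlap, and measured 0.01 (SE 0.06) in wild-type embryos. The interaction was -0.34 (95% interval -0.52 to -0.16, unadjusted p = 6.6e-04). The list as a whole had a median interaction of 0.00, with 1 gene positive and 1 negative, Npas4 itself, at an unadjusted p under 0.05. Hcrt, the precursor of the orexin neuropeptides, fell by 0.15 in wild-type embryos and measured 0.09 in Ts1Cje embryos, with an interaction of 0.24. Fzd5, a Wnt receptor, measured -0.11 and 0.11, passing in neither genotype, with an interaction of 0.22 (95% interval 0.10 to 0.35, unadjusted p = 0.00133). Taking the 10 genes with the smallest p in each direction, the interactions lay between -0.49 for Gm7168 and 0.80 for Try10, and 19 of these 20 genes lay below the median level of 7.87.

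**Figure D5:**
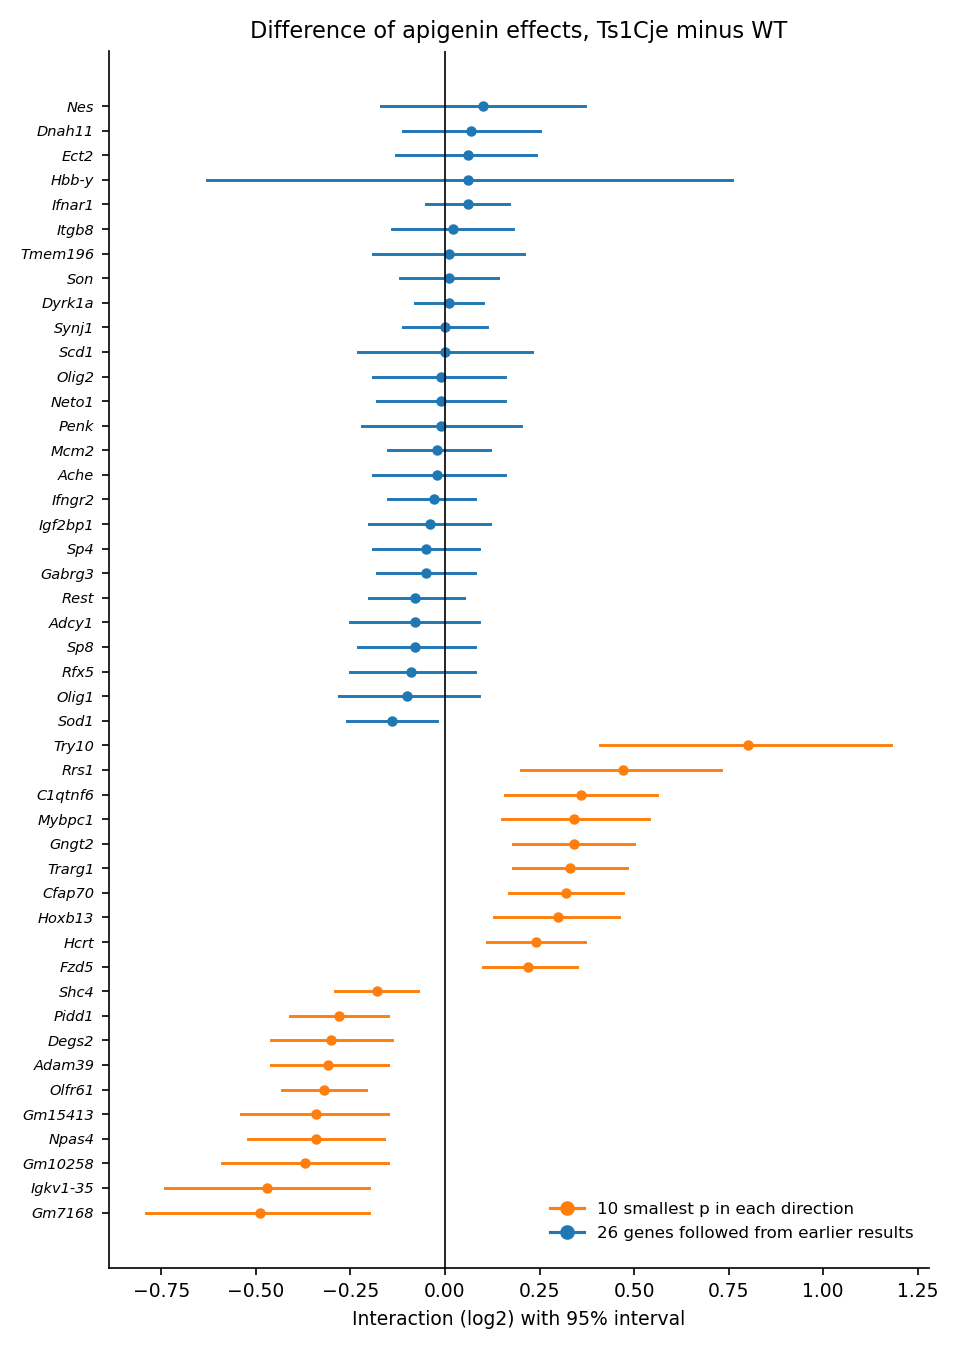
Interaction on the log2 scale with its 95% interval for the 10 genes with the smallest p in each direction (orange) and 26 genes followed from earlier results on chow or genotype (blue). The orange intervals exclude 0 because the genes were chosen by p, and Hbb-y has a wide interval of -0.63 to 0.76 around 0.06.

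Small p-values were most frequent among dim genes. With genes in 5 equal classes of mean level, 5.19% of the dimmest, 4.15%, 2.3%, 0.988% and 0.543% of the brightest had an interaction p under 0.05, and the median SE fell from 0.12 to 0.063 over the same classes. Of the 24 genes with an interaction over 1.5-fold, 22 lay below the median level, and 1 exceeded 2-fold. That gene, a variable segment of the immunoglobulin kappa light chain, had an interaction of -1.08 (SE 0.40, unadjusted p = 0.0137). Plain chow gave values of 4.91, 3.45, 3.12, 3.21 and 3.52 in wild-type and 4, 3.78, 3.79, 3.44 and 4.37 in Ts1Cje embryos. Apigenin chow gave 4.33, 4.67, 4.09, 4.1 and 3.34 in wild-type and 3.23, 2.82, 3.57, 3.13 and 3.54 in Ts1Cje embryos. Replicate 1 of the wild-type plain chow group, at 4.91, stood above the other 4 of its group, and the chow groups overlapped in both genotypes. Without that embryo the interaction was -1.40. The other 4 largest were Vmn1r191 (0.95) and Vmn1r59 (-0.80), vomeronasal receptor genes, the olfactory receptor gene Olfr1196 (0.87) and Serpinb9g (0.81).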

How the data were processed

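The samples were 20 forebrains of mouse embryos, put in groups by their labelled genotype and treatment, since every title carries the strain name. Values deposited by the authors are on the log2 scale, 1 per probe set. The submitters' processing notes name RMA. This method corrects background, equalises the array distributions and summarises probes, so array-wide shifts were removed and low values are compressed. Its version was not given in the sources used here, nor was a build. A gene table paired 20239 of 21225 probe sets with 1 symbol each, and 986 stayed unnamed. The number of arrays limits the precision, and errors are larger for dim genes.

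In R 4.3.3, limma 3.58.1 fitted 1 mean per group to all 20 arrays (lmFit, eBayes), with two-sided tests and Benjamini-Hochberg adjustment over 20239 genes at a threshold of 0.05. Intervals are 95% intervals. The script was tested on simulated data. The 34 gene lists were matched by symbol and have no test. The genes named were the 10 smallest p in each direction, the 5 largest interactions, up to 5 of opposite sign in the genotypes, up to 5 among genes called for each averaged effect, up to 3 per list, and 26 genes followed from earlier results on chow or genotype. Members, lists and this rule were chosen with earlier results of these data known. Alternatives were the study's threshold (unadjusted p of 0.001 with a false discovery rate of 10%), an unmoderated model, filters on dim genes, renormalization, array weights, another prior, a block for runs of embryo numbers, a sex term, Hbb-y as a covariate, the 12 arrays with high Y-linked signal, all probe sets, and leaving out each array.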

Additional observations from a re-analysis of the deposited data

Results flagged for a closer look

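Among 380 sets of 5 embryos, 95 named genes in each of 4 groups, 26 held an embryo standing apart from the other 4 of its group by Dixon's gap test, and chance alone gives about 1 in 20 sets, or 5%. Values are log2 expression, with the range of the other 4 in brackets, and none was weighed for a cause. In the wild-type apigenin group, these were Try10 in replicate 2 at 3.4 (low, others 3.93 to 4.06), Gm7168 in replicate 4 at 4.48 (low, others 4.76 to 4.88) and Olfr1076 in replicate 5 at 4.06 (high, others 3.97 to 3.99). Further values there were Gins3 in replicate 5 at 7.94 (high, others 7.66 to 7.72), Gad1 in replicate 3 at 10.21 (high, others 10.09 to 10.12) and Srebf1 in replicate 1 at 8.56 (high, others 8.42 to 8.46). Also apart was Scd1 in replicate 2 at 8.71 (low, others 8.93 to 9.02). In the Ts1Cje plain chow group, these were Try10 in replicate 4 at 4.31 (high, others 3.82 to 3.93), Hoxb13 in replicate 3 at 6.52 (low, others 6.68 to 6.71) and Rfc3 in replicate 1 at 8.86 (low, others 9.03 to 9.08). The same group held Drd2 in replicate 3 at 8.13 (low, others 8.3 to 8.36) and Neto1 in replicate 1 at 10.07 (high, others 9.96 to 9.99). In the wild-type plain chow group, these were the immunoglobulin kappa segment with the largest interaction in replicate 1 at 4.91 (high, others 3.12 to 3.52), Vmn1r191 in replicate 3 at 4.86 (high, others 4.03 to 4.21) and Fam3b in replicate 1 at 6.02 (high, others 5.61 to 5.67). Further values there were Nrxn2 in replicate 2 at 10.78 (high, others 10.63 to 10.64), Ocln in replicate 3 at 7.03 (low, others 7.24 to 7.33) and Thrsp in replicate 5 at 7.46 (high, others 7.31 to 7.34). Also apart were Tmem196 in replicate 5 at 8.44 (low, others 8.71 to 8.81) and Dyrk1a in replicate 5 at 11.23 (high, others 11.12 to 11.15). In the Ts1Cje apigenin group, these were Neurog1 in replicate 2 at 6.93 (low, others 7.24 to 7.3), Fosb in replicate 5 at 6.94 (low, others 7.11 to 7.14) and Insig1 in replicate 5 at 10.13 (high, others 9.86 to 9.9). The same group held Ache in replicate 3 at 7.46 (low, others 7.56 to 7.6), Rfx5 in replicate 4 at 8.01 (low, others 8.18 to 8.23) and Synj1 in replicate 2 at 10.33 (high, others 10.21 to 10.24).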

How the results depend on the processing

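The interaction had 0 calls with limma under each alternative, including the study's threshold, the runs of embryo numbers as a block, a term for Y-linked level or for Hbb-y, the 12 arrays with high Y-linked signal, and all 20 fits without 1 embryo. The exception was the unmoderated model, which called 1 gene, Olfr61 (-0.32, adjusted p = 0.0451). Counts at an unadjusted interaction p under 0.05, added after seeing the data, were 347 without the dimmest 20% of genes, 202 without the dimmest 40%, where fewer genes are tested, and 479 to 800 when 1 embryo was left out. At the study's threshold the apigenin calls were 1436 in wild-type and 1895 in Ts1Cje embryos, the averaged apigenin calls 3178 and the averaged genotype calls 205. With runs of embryo numbers as a block the averaged apigenin calls were 3466. Runs lie within a chow, so the apigenin contrast of that fit depends on how the runs were coded. It is not the same quantity as in the main fit, and the counts are not directly comparable. Without the dimmest 40% of genes the averaged genotype calls were 200. The cause of these shifts was not tested. Leaving out 1 embryo gave 1906 to 2508 wild-type, 2539 to 3532 Ts1Cje, 4793 to 5385 averaged apigenin and 101 to 178 averaged genotype calls. Of 2605 interactions of named genes recomputed with limma, 71 changed sign and 0 passed the threshold. Of the 71, 0 had a main interaction larger than its SE. These recomputed values leave out the unmoderated model, all probe sets, Hbb-y as a covariate and the 12 arrays with high Y-linked signal. Olfr61, picked by its p on the same arrays, lay between -0.35 and -0.30 in these refits. The median interaction of all genes moved to 0.0003 and 0.0077 under the other scalings. Runs of embryo numbers lie within a chow, so chow and run cannot be told apart in the apigenin effects. No paired analysis was possible because the labels give no replicate numbers shared between groups. The 5 embryos in each group limit the precision, most for dim genes.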

Other observations

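The 986 probe sets with no gene name held 0 interaction calls with limma and 18 with an unadjusted p under 0.05. In the 5 classes of mean level, the genes with an interaction p under 0.05 were mostly positive among dim genes, with 140 positive and 70 negative in the dimmest class. In the next to brightest class 7 were positive and 33 negative.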
